A study of Homo sapiens with 4 samples.

Results

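The genes of respiratory complex I were analysed in MV4-11 cells upon CEBPG knockdown. They were chosen by symbol from the deposited table, as every gene named NDUFA, NDUFB, NDUFC, NDUFS or NDUFV with a number or letter, including the NDUFAF assembly factors. This gave 51 symbols, of which 47 were kept out of 16490 genes with a value. The 4 symbols left out were the pseudogene NDUFAF4P1 and the non-coding RNAs NDUFA6-DT, NDUFB2-AS1 and NDUFV2-AS1. The 47 genes comprised 7 nuclear-encoded core subunits, 29 accessory subunits, the acyl carrier protein NDUFAB1, 8 assembly factors, and the genes NDUFA4 and NDUFA4L2, which carry the name but are not counted among complex I subunits today.

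MV4-11 is a human acute myeloid leukemia (AML) cell line of myelomonocytic type with a KMT2A rearrangement and an internal tandem duplication in FLT3. The series holds 2 libraries of cells carrying the control hairpin sh-NC and 2 libraries of cells carrying the hairpin sh-CEBPG#3 against CEBPG, a transcription factor of the CCAAT enhancer binding protein family. Both groups were infected with pLKO.1-puro lentivirus and selected with puromycin, so that infection and selection are common to all 4 libraries. The sequenced knockdown rests on 1 hairpin in stable pools, and neither the time after infection nor the origin of the replicates from separate infections is given in the sources used here. The p-values therefore measure the spread between these libraries, which may be technical.

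Complex I takes electrons from NADH and passes them to ubiquinone at the inner mitochondrial membrane, while pumping protons out of the matrix. Its matrix arm holds the flavin and the chain of iron-sulfur clusters, and its membrane arm holds the proton pumps, which are encoded by the mitochondrial genome. Accessory subunits surround this core, and assembly factors build it without staying in the finished complex. NDUFAB1 differs from the other subunits in that it is also the acyl carrier protein of mitochondrial fatty acid synthesis, and it binds LYR motif proteins both within complex I and in the machinery that makes iron-sulfur clusters. Leukemia cells of this type are known to draw on mitochondrial respiration.

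The values are fragments counted per kilobase of transcript and scaled to library size (FPKM), summed over the RefSeq transcripts of a gene. Fold changes are given on the log2(FPKM + 1) scale as sh-CEBPG#3 against sh-NC, from limma fitted to 12142 genes whose mean reached 0.5 FPKM, and a gene was called at a Benjamini-Hochberg adjusted p under 0.05. All 47 complex I genes passed this filter. CEBPG itself had 30.4 and 33.6 FPKM in sh-NC cells and 19.2 and 17.1 FPKM in sh-CEBPG#3 cells, a log2 fold change of -0.78 (SE 0.09). Totals over all genes ranged from 364353 to 389766 FPKM, and the read depth is unknown. All 10 myelomonocytic markers examined were listed, and 9 of them were above 1 FPKM in every library. CD14 had 0.187 and 0 FPKM in sh-NC cells and 1.09 and 0.697 FPKM in sh-CEBPG#3 cells. The summed level of the 10 markers was 897 and 975 FPKM in sh-NC cells and 3555 and 3382 FPKM in sh-CEBPG#3 cells. This difference was carried mostly by LYZ, and its part in the results below was not tested. Most other markers were higher as well. CSF1R had 4.41 and 4.52 FPKM in sh-NC cells and 8.42 and 8.60 FPKM in sh-CEBPG#3 cells. MPO had 70.7 and 80.4 against 118 and 115 FPKM, and SPI1 had 114 and 125 against 157 and 144 FPKM. CD33 had 26.8 and 28.3 against 37.2 and 34.3 FPKM, and ITGAM had 7.74 and 7.85 against 8.70 and 8.02 FPKM. MEIS1, HOXA9 and FLT3 went the opposite way. MEIS1 had 6.65 and 7.34 FPKM in sh-NC cells and 3.42 and 3.29 FPKM in sh-CEBPG#3 cells, HOXA9 had 31.5 and 35.7 against 28.5 and 23.6 FPKM, and FLT3 had 67.6 and 75.0 against 66.0 and 62.8 FPKM. Of 13 markers of T cells, B cells, erythroid and epithelial cells, 3 were listed, and the highest was KRT8 with 2.29 and 2.35 FPKM in sh-NC cells and 6.26 and 6.19 FPKM in sh-CEBPG#3 cells. In such bulk samples fewer cells with a transcript and less of it per cell cannot be told apart.

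NDUFAB1 fell further than any other complex I gene upon CEBPG knockdown. Its level was 72.8 and 70.8 FPKM in sh-NC cells and 18.8 and 21.3 FPKM in sh-CEBPG#3 cells. The groups were far apart, and the libraries of each group lay close together. On average it went from 71.8 ± 1.37 (SD, n = 2) to 20.1 ± 1.78 FPKM (SD, n = 2), which is 27.9% of the control mean or a 3.58-fold decrease. The log2 fold change was -1.79 (SE 0.08, 95% interval -1.97 to -1.61, Benjamini-Hochberg adjusted p = 1.95e-07 in limma), rank 12 among the decreases of all genes tested. NDUFAB1 was the only one of the 47 genes with an unadjusted p under 0.05 and a log2 fold change below -1, a threshold passed by 1.05% of all genes tested. None of the 47 passed it in the other direction (log2 fold change above 1), where the share over all genes was 2.36%. NDUFA4L2 came close at -0.95 and also passed in the negative direction with smaller pseudocounts.

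The comparison with the other subunits was made within the same libraries. The 36 other subunits had a median log2 fold change of -0.020, against -0.038 for all genes tested, and ranged from -0.86 for NDUFS4 to 0.52 for NDUFA1. NDUFAB1 lay 1.77 below that median, and the next lowest subunit, NDUFS4, lay 0.93 above it on the log2 scale. When every gene was expressed relative to the mean log2 level of the 36 other subunits in its library, a scale chosen with the values already known, NDUFAB1 still fell by 1.78 on the log2 scale (95% interval -1.97 to -1.60, Benjamini-Hochberg adjusted p = 3.12e-05 in limma). This scale moves all genes of a library by the same amount, so its value is not a separate test. On this scale the value for NDUFAB1 is its difference from the mean of the other subunits. NDUFAB1 was picked with earlier results known, so the p given is no independent evidence for that difference.

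The decrease moved NDUFAB1 down among the subunits by RNA level. It made up 2.79% and 2.61% of the summed FPKM of the 37 subunits in sh-NC cells, and 0.747% and 0.865% in sh-CEBPG#3 cells. By level it ranked 13 and 16 among the 37 subunits in sh-NC cells and 31 and 30 in sh-CEBPG#3 cells. In sh-NC cells it was 1.30 and 1.197 times the median of the other subunits, and in sh-CEBPG#3 cells 0.310 and 0.364 times. A two-sided exact permutation test of such a share, at n = 2 in each group, cannot give a p under 0.333, so none is given. The summed FPKM of the 36 other subunits was 2535 and 2639 in sh-NC cells and 2497 and 2442 in sh-CEBPG#3 cells, and 95.4% of the control sum remained.

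NDUFAB1 lies on the minus strand of chromosome 16 (GRCh38, chr16:23581014-23596316), with 5 exons and an mRNA of 665 nt in its canonical GENCODE transcript ENST00000007516.8. The table lists it as 1 RefSeq transcript, NM_005003, so its value does not depend on a split between isoforms. One pseudogene of NDUFAB1 is annotated, and reads of both could be shared by the mapping. No other protein-coding gene overlaps it. Neighbours were taken as the protein-coding genes with the nearest start on either side, at 45005 bp for PALB2 and 38585 bp for EARS2. PALB2, a partner of BRCA2 in DNA repair, had 5.26 and 5.85 FPKM against 4.37 and 4.43 FPKM (log2 fold change -0.28, adjusted p = 0.0418 in limma). EARS2, the mitochondrial glutamyl-tRNA synthetase, had 9.38 and 9.89 FPKM against 7.92 and 6.83 FPKM (-0.35, adjusted p = 0.0149 in limma). Both neighbours were thus lower too, at -0.28 and -0.35 against -1.79 for NDUFAB1.

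**Figure D1:**
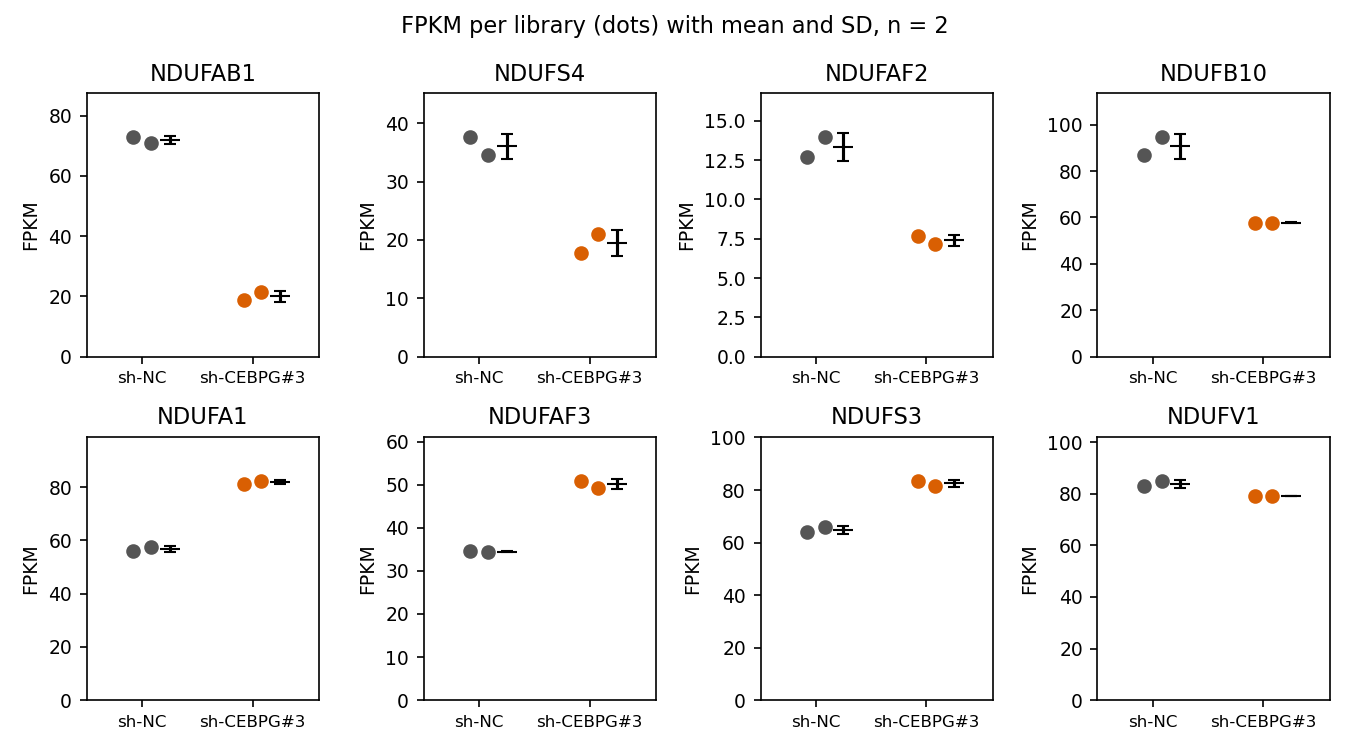
FPKM of 8 complex I genes in each library (dots), with the mean and SD of each group (n = 2) beside them; every vertical axis starts at 0. NDUFAB1 fell from 71.8 to 20.1 FPKM on average, NDUFS4, NDUFAF2 and NDUFB10 fell by less, NDUFA1, NDUFAF3 and NDUFS3 rose, and NDUFV1 was not called.

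Across the 47 genes, 9 were higher and 10 were lower at an adjusted p under 0.05, and 28 were not called. These 19 genes are 40.4% of the group, close to the 42.2% of all genes tested that were called. By direction, 18.5% of all genes were called higher and 23.8% lower. The groups did not overlap for 31 of the 47 genes, while this held for 71.7% of all genes tested. Most changes were small. The log2 fold change was within 0.25 of 0 for 28 of the 47 genes, and the lowest and highest values beside NDUFAB1 were -0.95 for NDUFA4L2 and 0.53 for NDUFAF3. Of the 19 called genes, 8 were also called under each of 14 other settings of scaling, filter, pseudocount, block, transcript or library, namely NDUFAB1, NDUFS4, NDUFAF2, NDUFB10 and NDUFB11 among the lower genes and NDUFAF3, NDUFA1 and NDUFS3 among the higher ones. With the most abundant transcript of each gene in place of the sum, 9 of the 47 genes were called, these 8 and NDUFA13. Adjusted p came there from a fit of all 18624 transcripts tested, of which 8.24% were called. The share over the most abundant transcripts alone was not computed.

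**Figure D2:**
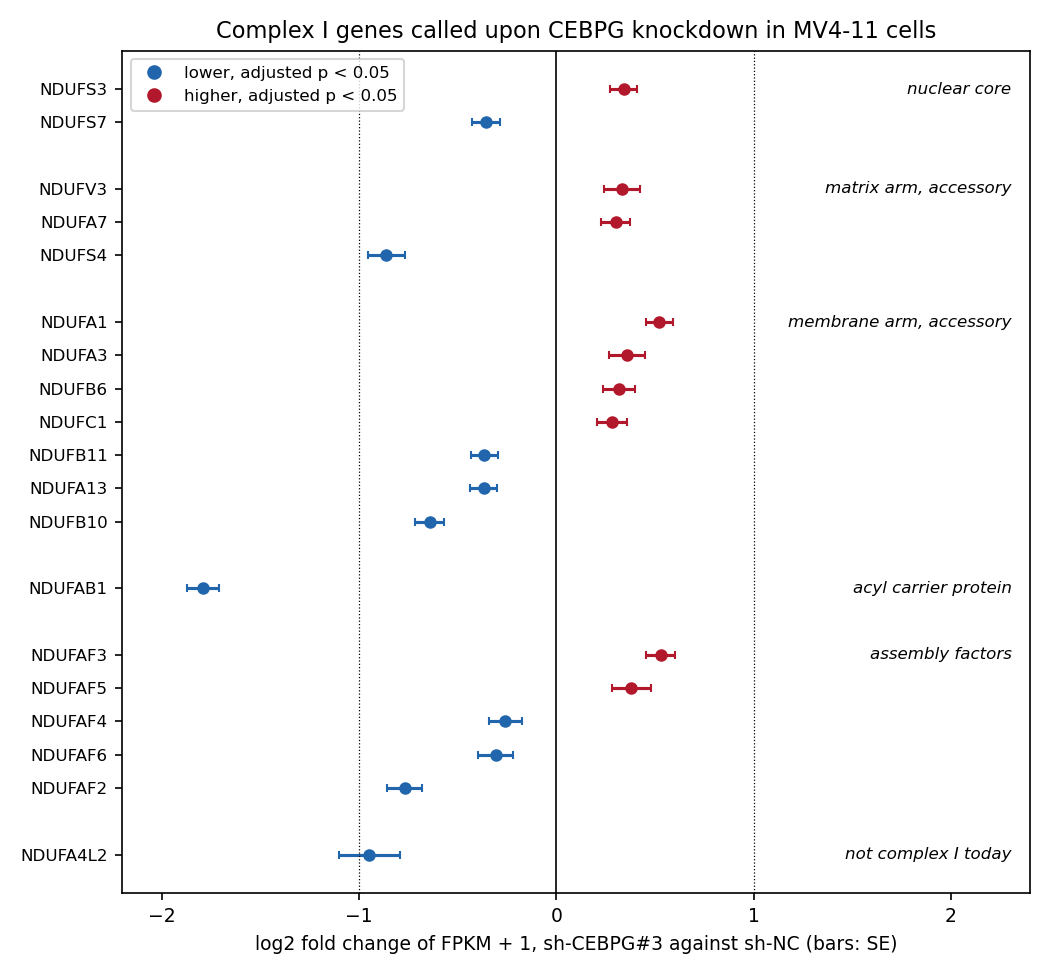
Log2 fold change of FPKM + 1 in sh-CEBPG#3 against sh-NC cells for the 19 complex I genes called at an adjusted p under 0.05, grouped by role, with bars for the SE from limma and dotted lines at a log2 fold change of 1 in both directions. NDUFAB1 at -1.79 stands apart from the other called genes, which lie between -0.95 and 0.53.

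Among the 7 core subunits, which carry the catalytic cofactors and the ubiquinone site, 1 rose, 1 fell and 5 were not called. This is 28.6% called, against 42.2% of all genes tested. NDUFS3, a core subunit of the matrix arm next to the ubiquinone-binding part, had 63.8 and 65.9 FPKM in sh-NC cells and 83.5 and 81.5 FPKM in sh-CEBPG#3 cells. The groups did not overlap, and the log2 fold change was 0.34 (SE 0.07, adjusted p = 0.00313 in limma). NDUFS7, which holds the last iron-sulfur cluster before ubiquinone, had 108 and 114 FPKM against 89.3 and 83.6 FPKM (-0.36, SE 0.07, adjusted p = 0.00305 in limma). Without sh-CEBPG#3 replicate 2 the decrease of NDUFS7 was -0.31 and no longer called (adjusted p = 0.0611 in limma).

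Core subunits that were not called had log2 fold changes from -0.08 for NDUFV1 to 0.19 for NDUFV2. NDUFV1, which binds NADH and the flavin, had 82.8 and 84.9 FPKM against 79.0 and 79.2 FPKM, with a 95% interval of -0.24 to 0.07 for the log2 fold change. NDUFV2, its iron-sulfur partner, had 55.9 and 57.2 FPKM against 63.3 and 65.8 FPKM, and with 0.19 (95% interval 0.03 to 0.34, adjusted p = 0.0552 in limma) it missed the threshold. NDUFS1, the largest core subunit of the matrix arm, had 22.6 and 23.0 FPKM against 26.3 and 24.6 FPKM (95% interval -0.02 to 0.32). The interval of NDUFS8, which carries a pair of iron-sulfur clusters, was -0.13 to 0.24. The summed FPKM of the 7 core subunits was 462 and 488 in sh-NC cells and 492 and 474 in sh-CEBPG#3 cells, so the groups overlapped.

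Of the 9 accessory subunits of the matrix arm, 2 rose, 1 fell and 6 were not called (33.3% called, all genes 42.2%). NDUFS4, a subunit at the NADH-binding tip whose loss is known from Leigh syndrome, had 37.6 and 34.6 FPKM in sh-NC cells and 17.8 and 21.0 FPKM in sh-CEBPG#3 cells. It was lower in both knockdown libraries, with 53.9% of the control level left and a log2 fold change of -0.86 (SE 0.09, adjusted p = 6.77e-05 in limma). Across the fits that each left out 1 library this value ranged from -0.98 to -0.75. NDUFV3, a small subunit of the same tip, had 12.5 and 13.1 FPKM against 17.6 and 15.2 FPKM (0.34, adjusted p = 0.0142 in limma). NDUFA7 had 56.6 and 60.8 FPKM against 71.4 and 73.5 FPKM (0.30, adjusted p = 0.00801 in limma). Both stayed higher without any 1 library, but not always past the threshold. NDUFV3 ranged from 0.24 to 0.43 and missed it without sh-CEBPG#3 replicate 1 (adjusted p = 0.125 in limma). NDUFA7 was 0.32 without sh-CEBPG#3 replicate 1 (adjusted p = 0.0505 in limma) and 0.28 without sh-CEBPG#3 replicate 2 (adjusted p = 0.0825 in limma).

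NDUFA6 belongs to the LYR motif family and is one of the subunits through which NDUFAB1 is held in complex I. It had 7.36 and 7.57 FPKM in sh-NC cells and 7.09 and 7.34 FPKM in sh-CEBPG#3 cells, a log2 fold change of -0.04 with a 95% interval of -0.24 to 0.15. NDUFB9, the LYR motif subunit that binds the other copy of NDUFAB1 in the membrane arm, had 182 and 169 FPKM against 165 and 163 FPKM (95% interval -0.25 to 0.06). Neither interval reached the interval of NDUFAB1.

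Of the 20 accessory subunits of the membrane arm, 4 rose, 3 fell and 13 were not called (35% called, all genes 42.2%). NDUFB10, a subunit of the distal part of this arm, had 87.0 and 94.5 FPKM in sh-NC cells and 57.7 and 57.8 FPKM in sh-CEBPG#3 cells (log2 fold change -0.64, SE 0.07, adjusted p = 9.65e-05 in limma). NDUFA13, also known as GRIM-19, had the highest level of all 47 genes with 308 and 329 FPKM, and 249.6 and 243 FPKM in sh-CEBPG#3 cells (-0.37, adjusted p = 0.00209 in limma). Its decrease was -0.35 and narrowly missed the threshold without sh-CEBPG#3 replicate 2 (adjusted p = 0.0548 in limma). NDUFB11, which is needed to build the membrane arm, had 73.5 and 73.0 FPKM against 57.9 and 55.5 FPKM (-0.36, adjusted p = 0.00228 in limma). In all 3 genes both knockdown libraries lay below both control libraries.

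The higher subunits of the membrane arm were NDUFA1, NDUFA3, NDUFB6 and NDUFC1. NDUFA1, a small single-pass membrane subunit, had 55.8 and 57.6 FPKM in sh-NC cells and 81.3 and 82.3 FPKM in sh-CEBPG#3 cells (log2 fold change 0.52, SE 0.07, adjusted p = 0.000251 in limma), the largest increase among the subunits. NDUFA3 had 5.96 and 6.51 FPKM against 8.05 and 8.49 FPKM (0.36, adjusted p = 0.0102 in limma), the lowest level of all subunits in sh-NC cells. NDUFB6 had 19.3 and 19.9 FPKM against 23.4 and 26.1 FPKM (0.32, adjusted p = 0.0112 in limma), and 0.24 without sh-CEBPG#3 replicate 2, where it was not called (adjusted p = 0.114 in limma). NDUFC1 had 25.1 and 23.4 FPKM against 30.1 and 29.3 FPKM (0.28, adjusted p = 0.0143 in limma). It was not called without sh-CEBPG#3 replicate 1 (0.26, adjusted p = 0.0954 in limma) or without sh-CEBPG#3 replicate 2 (0.30, adjusted p = 0.0553 in limma). The 13 subunits not called ranged from -0.21 for NDUFA10 to 0.17 for NDUFB1.

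**Figure D3:**
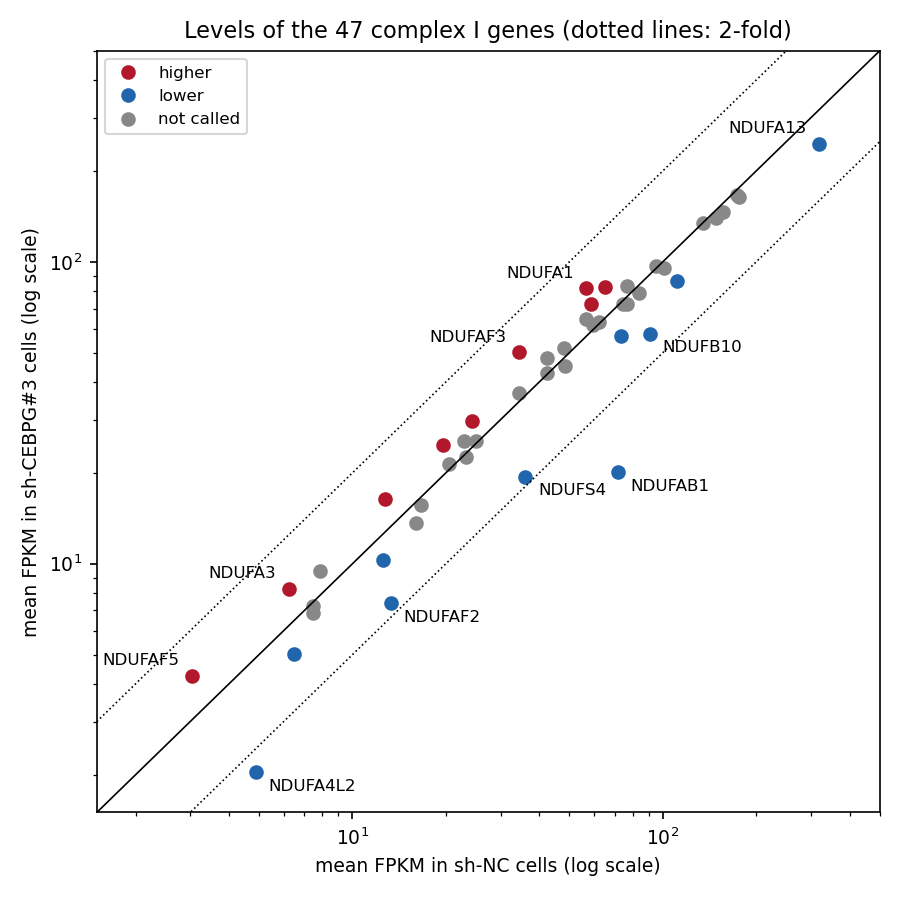
Mean FPKM of the 47 complex I genes in sh-NC cells (horizontal, log scale) and in sh-CEBPG#3 cells (vertical, log scale), n = 2 libraries each, with a solid line for equal levels and dotted lines for a 2-fold difference. NDUFAB1 and NDUFA4L2 lie below the lower dotted line, at 27.9% and 41.7% of the control mean.

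Among the 8 assembly factors, 2 rose, 3 fell and 3 were not called (62.5% called, all genes 42.2%). NDUFAF2, a paralogue of the subunit NDUFA12 that occupies its place during assembly, had 12.7 and 13.95 FPKM in sh-NC cells and 7.66 and 7.16 FPKM in sh-CEBPG#3 cells. The log2 fold change was -0.77 (SE 0.09, adjusted p = 0.000108 in limma), while NDUFA12 itself had 67.5 and 80.8 FPKM against 74.2 and 71.0 FPKM and overlapped between the groups. NDUFAF3 had 34.5 and 34.4 FPKM against 50.9 and 49.3 FPKM (0.53, SE 0.07, adjusted p = 0.000279 in limma), the largest increase of all 47 genes. NDUFAF4, which works with NDUFAF3 in building the ubiquinone-binding part of the matrix arm, went the other way with 12.1 and 12.9 FPKM against 10.5 and 10.04 FPKM (-0.26, adjusted p = 0.0320 in limma).

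NDUFAF5, which hydroxylates NDUFS7, had 3.13 and 2.94 FPKM in sh-NC cells and 4.27 and 4.24 FPKM in sh-CEBPG#3 cells (0.38, adjusted p = 0.0115 in limma). It is the gene with the lowest level in sh-NC cells, and with its most abundant transcript in place of the sum the value was 0.072 and not called (adjusted p = 0.820 in limma). NDUFAF6 had 6.35 and 6.59 FPKM against 5.08 and 4.98 FPKM (-0.31, adjusted p = 0.0201 in limma). The decreases of NDUFAF4 and NDUFAF6 were of similar size without any 1 library, but not always past the threshold. NDUFAF4 was not called without sh-NC replicate 2 (-0.21, adjusted p = 0.142 in limma), without sh-CEBPG#3 replicate 1 (-0.29, adjusted p = 0.0647 in limma) or without sh-CEBPG#3 replicate 2 (-0.23, adjusted p = 0.145 in limma). NDUFAF6 was not called without sh-NC replicate 2 (-0.29, adjusted p = 0.0867 in limma) or without sh-CEBPG#3 replicate 2 (-0.30, adjusted p = 0.0667 in limma). NDUFAF1, NDUFAF7, a methyltransferase, and NDUFAF8, which binds NDUFAF5, had log2 fold changes of -0.08, 0.23 and 0.02 and were not called.

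NDUFA4, now counted as a subunit of complex IV, had 32.8 and 36.1 FPKM in sh-NC cells and 35.7 and 38.0 FPKM in sh-CEBPG#3 cells and was not called. Its paralogue NDUFA4L2, known as a hypoxia-inducible gene, was low throughout with 4.04 and 5.76 FPKM against 2.37 and 1.71 FPKM (-0.95, SE 0.15, adjusted p = 0.000891 in limma). Its 3′ end overlaps that of SHMT2, which lies on the opposite strand with 218 and 246 FPKM in sh-NC cells. Reads from such overlaps cannot be told apart where strand was not recorded.

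The levels of the subunits differed widely within a library, although the finished complex holds most of them in equal numbers. In sh-NC cells the 37 subunits ran from 5.96 FPKM for NDUFA3 to 308 FPKM for NDUFA13 in replicate 1 and from 6.51 to 329 FPKM for the same genes in replicate 2. The standard deviation of log2 FPKM over the 37 subunits was 1.36 and 1.36 in sh-NC cells and 1.32 and 1.31 in sh-CEBPG#3 cells. NDUFB9, NDUFB8, NDUFS5 and NDUFS6 followed NDUFA13 with means of 175, 173, 156 and 148 FPKM in sh-NC cells. NDUFA5 and NDUFA6 were low with 7.47 and 7.46 FPKM. Of the 47 genes, 21 have annotated pseudogenes, with 12 each for NDUFA5 and NDUFB4, and 22 overlap another protein-coding gene, so that the levels of these genes can include or lose shared reads.

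Among the genes with overlaps is NDUFAF3, which overlaps DALRD3 on the opposite strand. DALRD3 had 11.3 and 11.2 FPKM in sh-NC cells and 16.0 and 14.9 FPKM in sh-CEBPG#3 cells (0.43, adjusted p = 0.00244 in limma), so both rose, and the part of shared reads was not tested. NDUFA1 and NDUFAF2 start within 99 and 104 bp of genes that run the opposite way. RNF113A, the neighbour of NDUFA1, had 4.89 and 6.36 FPKM against 6.18 and 6.25 FPKM (0.13, adjusted p = 0.382 in limma). ERCC8, the neighbour of NDUFAF2, had 3.27 and 3.89 FPKM against 2.66 and 2.81 FPKM (-0.29, adjusted p = 0.0586 in limma).

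The RefSeq promoter table (GRCh38.p14, 250 bases before to 50 after the start) held 39 of the 47 genes. It was searched on both strands for 7 motifs, among them the C/EBP palindrome TTGCGCAA and the composite C/EBP and ATF letters TGATGCAA, since CEBPG was the target. Shares are given over all 27305 promoters and over the 9185 promoters of genes tested here. TTGCGCAA was in 0 of the 39 promoters (0.128% of all, 0.229% of genes tested), and TGATGCAA in 0 of 39 (0.923% and 0.490%). CCAAT, the letters bound by NF-Y, was in 11 of 39 (28.2%, against 35.7% and 37.0%). The ATF and CREB site TGACGTCA was in 2 of 39 (5.13%, against 1.98% and 3.41%), the ETS site CCGGAAGT in 2 of 39 (5.13%, against 4.44% and 9.73%), the palindromic NRF1 site in 3 of 39 (7.69%, against 1.36% and 2.43%) and the YY1 site in 2 of 39 (5.13%, against 0.916% and 2.23%). No match to the 7 motifs was recorded for NDUFAB1. Only matches were recorded by gene, so this does not show whether its promoter was among the 39. Of the 10 genes called lower, 8 were among those searched. NDUFAF2, the assembly factor with the largest decrease, is shown as an example. Its promoter, shared with ERCC8, held CCAAT on both strands. The matches are in capitals, read along the strand of NDUFAF2, with chr5:60945077-60945106 first and chr5:60945102-60945131 next:
NDUFAF2 reverse match: gcagagtctcccATTGGtcagtcggtgata
NDUFAF2 forward match: tgatatatccggCCAATggtgagcgccgtt
A match of letters is a description and not a binding site.

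For 21 genes the table holds more than 1 RefSeq transcript with a value. The most abundant one was the same in all 4 libraries for 20 of these, and NDUFAF5 was the exception. Transcripts were also tested one by one over all complex I genes, those with only 1 transcript included. Of these 75 transcripts, 3 were called higher and 6 lower, where 8.24% of all transcripts were called in either direction. Among genes with more than 1 transcript, the called ones were NM_199069 of NDUFAF3, higher, and NM_001135998 of NDUFB11, lower. NDUFC1, with 7 transcripts, had the smallest share in its most abundant one. Its transcript NM_001184987 had 8.20 and 8.46 FPKM in sh-NC cells and 17.9 and 13.5 FPKM in sh-CEBPG#3 cells (0.83, adjusted p = 0.0556 in limma), while NM_001184986 had 3.83 and 3.18 FPKM against 0.776 and 1.54 FPKM (-1.08, adjusted p = 0.0728 in limma). In both the groups did not overlap, but neither was called.

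The other genes needed for complex I were read from lists of known members. Of 14 further assembly factors, 0 rose and 3 fell (21.4% called, all genes 42.2%), at a median log2 fold change of 0.0008. The lower ones were AIFM1 (24.3 and 25.3 FPKM against 19.3 and 18.7 FPKM), ECSIT (18.11 and 18.11 FPKM against 14.6 and 13.3 FPKM) and DMAC1 (10.2 and 9.58 FPKM against 8.13 and 7.48 FPKM), and their adjusted p did not exceed 0.0195 in limma. AIFM1 supports the import of respiratory chain proteins, ECSIT belongs to the complex that assembles the membrane arm, and DMAC1 acts at the far end of that arm. None of the subunits encoded by the mitochondrial genome was found by symbol among the genes with a value, so they were not analysed.

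NDUFAB1 serves mitochondrial fatty acid synthesis and lipoylation, of which 10 other genes were tested, with 1 higher and 2 lower (30% called, all genes 42.2%). AASDHPPT, which attaches the phosphopantetheine arm to carrier proteins, had 16.7 and 18.7 FPKM in sh-NC cells and 12.2 and 9.92 FPKM in sh-CEBPG#3 cells (-0.64, SE 0.11, adjusted p = 0.000992 in limma). CBR4, a subunit of the ketoacyl reductase of this pathway, had 5.15 and 4.99 FPKM against 3.56 and 3.33 FPKM (-0.45, adjusted p = 0.00442 in limma). LIPT2, which moves octanoate from the carrier to its target, had 1.47 and 1.28 FPKM against 2.38 and 1.78 FPKM (0.37, adjusted p = 0.0463 in limma). The synthase OXSM, the malonyl transferase MCAT and the reductase MECR were not called, at 0.26, -0.12 and -0.05.

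Of 22 genes of iron-sulfur cluster synthesis and of the LYR motif family, 2 rose, 2 fell and 18 were not called. This is 18.2% called, against 42.2% of all genes tested. LYRM4, the partner that holds NDUFAB1 in the cysteine desulfurase complex, had 24.3 and 24.4 FPKM in sh-NC cells and 26.2 and 20.3 FPKM in sh-CEBPG#3 cells. NFS1, the desulfurase itself, had 10.3 and 11.3 FPKM against 12.5 and 11.2 FPKM, so both overlapped between the groups. FMC1, a LYR motif protein of ATP synthase assembly, had 2.05 and 3.07 FPKM against 6.24 and 4.34 FPKM (0.82, SE 0.17, adjusted p = 0.00320 in limma). The other called genes were LYRM9 (0.47), IBA57 (-0.34) and FDX2 (-0.23).

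In complex II, SDHD, one of its membrane anchors, had 70.7 and 73.8 FPKM in sh-NC cells and 23.0 and 22.9 FPKM in sh-CEBPG#3 cells (-1.61, SE 0.07, adjusted p = 1.79e-07 in limma), while SDHA, SDHB and SDHC lay between -0.03 and 0.004 and were not called. Of 9 complex III genes 1 was called higher, UQCRC1 of the core (0.21), and 0 lower. Of 10 complex IV genes COX6A1 (0.31) was called higher and COX4I1 (-0.19) lower. Of 15 ATP synthase genes 3 were higher and 4 lower, with the largest changes for ATP5ME (-0.27), ATP5F1D (0.27) and ATP5PD (-0.25). The share called was 11.1% in complex III, 20% in complex IV and 46.7% in ATP synthase, against 42.2% of all genes tested. The median log2 fold changes were 0.098 for complex III, 0.086 for complex IV and -0.031 for ATP synthase, against -0.025 for the 37 complex I subunits. Among these complexes and complex I, NDUFAB1 and SDHD were the genes below a log2 fold change of -1, and each was the single gene of its complex to fall so far.

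**Figure D4:**
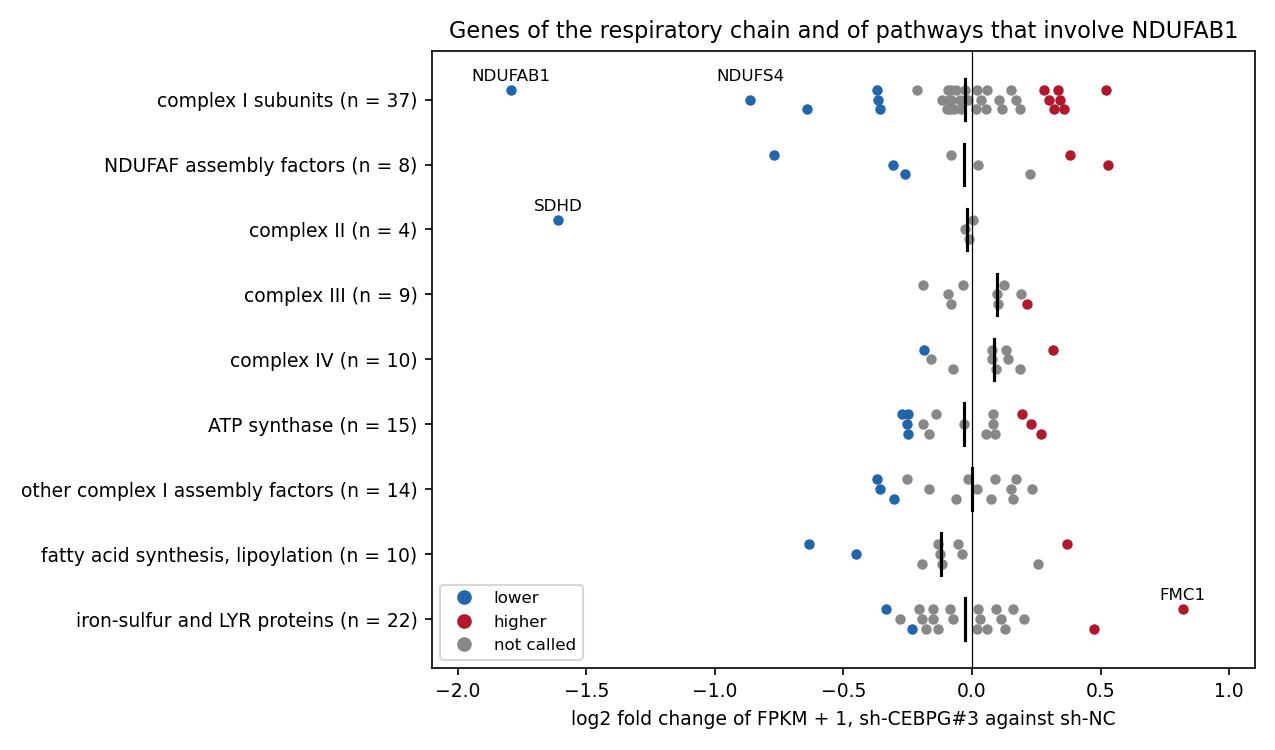
Log2 fold change of FPKM + 1 in sh-CEBPG#3 against sh-NC cells for each gene of complex I, its assembly factors, the other respiratory complexes and the pathways that involve NDUFAB1, coloured by call, with a black bar at the median of each list. NDUFAB1 at -1.79 and SDHD at -1.61 lie far to the left of all other points.

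Of 13 regulators of mitochondrial gene expression tested, 1 rose and 6 fell, or 53.8% called against 42.2% of all genes tested. MYC had 217 and 249 FPKM in sh-NC cells and 139.5 and 136 FPKM in sh-CEBPG#3 cells (-0.75, SE 0.08, adjusted p = 6.48e-05 in limma). TWNK, the mitochondrial DNA helicase (-0.38), PPRC1, a coactivator (-0.33), TFB2M (-0.30), TFAM, which packs mitochondrial DNA (-0.29), and POLRMT, the mitochondrial RNA polymerase (-0.26), were also lower, and none of their adjusted p exceeded 0.0273 in limma. GABPB1, a subunit of the GABP factor, was higher (0.28, adjusted p = 0.0265 in limma). NRF1, the factor named for its sites in respiratory chain genes, had a log2 fold change of -0.16 and was not called.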

How the data were processed

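RNA-seq libraries of MV4-11 cells (2 sh-NC, 2 sh-CEBPG#3) were prepared from total RNA with an Illumina TruSeq kit. Per the submitters' processing notes the reads were mapped to hg38 with HISAT2 2.0.5. The authors deposited FPKM values per RefSeq transcript and library. The program that computed them is not given in the sources used here. Of 28780 transcripts listed, 199 lack a value, and the rest were summed by gene symbol where one was given. FPKM values carry no counts, so the DESeq2 test of the study was not run. Whole reads could not be recovered from low values (the commonest ratio between both sh-NC libraries held for 0.487% of 1027 low transcripts), so depth is unknown and no interval for counting error is given.

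Genes whose mean over the libraries reached 0.5 FPKM (12142) were tested on log2(FPKM + 1) values by limma 3.58.1 under R 4.3.3, using lmFit and trended eBayes without a block term. Benjamini-Hochberg adjustment ran over all of these genes. The genes and lists were chosen with earlier results of these data known, so no list was tested. The text names CEBPG, NDUFAB1, core subunits, the members with the 6 highest and 6 lowest fold changes, those with the 3 highest and 3 lowest levels, other members by role, and the 3 largest changes of each further list. Other genes of those lists were named because they were called or partner with NDUFAB1, after their values were seen. One gene is not reported here. Neighbouring genes and motifs were chosen after the values were seen. Positions are from GENCODE v44. The alternatives were other pseudocounts, filters and scalings, a replicate block, the most abundant transcript, and each library left out.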

Additional observations from a re-analysis of the deposited data

How the results depend on the processing

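The decrease of NDUFAB1 was called in all 14 other settings, with log2 fold changes from -1.88 to -1.71. Among the settings that kept every library, its highest adjusted p was 0.0081 in limma, with the most abundant transcript of each gene. For the fits with a library left out, no p of NDUFAB1 is given, since 1 group then has no spread of its own. Its distance from the median of the other subunits was -1.77, and -1.90 to -1.69 with each library left out. The counts of 9 higher and 10 lower genes became 3 and 6 with the most abundant transcript of each gene. Adjusted p in that setting came from the fit of all transcripts, minor ones included, of which 8.24% were called. NDUFAF6, with 1 transcript, kept its log2 fold change of -0.31 there and lost the call (adjusted p = 0.146 in limma). The counts thus differ in the fit as well as in the transcript used. When single libraries were dropped they were 6 to 11 higher and 6 to 12 lower, with 6 lower without sh-CEBPG#3 replicate 2. In the same fits the median of the 37 subunits (-0.025) lay between -0.050 and 0.059 (0.059 without sh-NC replicate 2), and that of all genes between -0.074 and -0.0047. The lone library left in a group is then assumed to vary like the other group. A replicate block gave 9 higher and 9 lower genes. Same-numbered libraries deviated with a correlation of 0.061 and share only a number.

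No gene called with the deposited values changed direction, and 13 that were not called did. With median of ratios scaling NDUFA11 was 0.032, NDUFA12 0.021 and NDUFA8 0.00021. With equal FPKM totals NDUFA9 was -0.011, NDUFAF8 -0.0031 and NDUFB3 -0.0051. With quantile normalization NDUFA6 was 0.0049, NDUFB3 -0.0055 and NDUFB4 -0.048. With the most abundant transcript NDUFB8 was 0.062. With each library left out the ranges were -0.12 to 0.088 for NDUFA11, -0.15 to 0.10 for NDUFA12, -0.27 to 0.033 for NDUFA5, -0.13 to 0.16 for NDUFA9, -0.0900 to 0.14 for NDUFAF8, -0.21 to 0.066 for NDUFB2, -0.0495 to 0.0905 for NDUFB3, -0.055 to 0.13 for NDUFB4, -0.17 to 0.0045 for NDUFB7, -0.13 to 0.00401 for NDUFB8 and -0.032 to 0.14 for NDUFS8. Of the other values for single genes, 584 kept their side of the threshold, 27 lost the call and 21 gained it. What caused these shifts was not tested.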
